A study of Mus musculus with 12 samples.

Results

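The TNF superfamily consists of trimeric ligands, most of them anchored in the membrane, and the TNF receptor superfamily of the cysteine-rich receptors that bind them. Members were the protein-coding genes of GENCODE vM21 with a symbol that begins with Tnfsf or Tnfrsf, together with Tnf, Lta, Ltb, Cd27, Cd40, Cd40lg, Cd70, Fas and Ltbr, which gave 41 of 21951 genes, 17 ligands and 24 receptors. Chromatin accessibility was read from the regions of 500 bp that overlapped a member's gene body or the 10 kb on either side, 181 of the 63309 regions measured. At least 1 such region was found for 36 members, 13 ligands and 23 receptors, and none for Cd70, Tnfrsf11b, Tnfsf13b, Tnfsf15 and Tnfsf18. Of the 181 regions, 24 overlapped the loci of more than 1 member, and 31 lay nearer to the start site of a gene outside the family than to that of a member.

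The study measured accessibility by Omni-ATAC-seq, in which a transposase inserts sequencing adapters into open chromatin of permeabilized cells, to ask how loss of Hivep3 affects the subsets of invariant natural killer T (iNKT) cells. Hivep3 encodes a large zinc finger protein, and the Hivep3-/- mice are compared with wild-type C57BL/6 mice. All cells came from the thymus of untreated mice aged 8 to 9 weeks and were sorted as iNKT1 (CD122+ ICOS-), iNKT2 (CD122- ICOS+ Izumo1r+ CD138-) or iNKT17 (CD122- ICOS+ Izumo1r- CD138+) cells, then joined for the transposition and separated again by ICOS and CD138. Each subset had 2 libraries in each genotype, 12 libraries in 6 groups. The library titles number single mice, whereas the protocol describes cells from pooled thymi, so the p-values measure the spread between these libraries. The background strain of the Hivep3-/- mice is labelled C57BL/6, and which part of Hivep3 is deleted is not given in the sources used here.

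Engagement of these receptors recruits TRAF adaptors, which lead to NF-κB and MAP kinase activation, or, through a cytoplasmic death domain, adaptors that can lead to caspase activation. OX40, GITR, 4-1BB, CD27, CD30 and DR3 act as costimulatory receptors on T cells, and RANK, lymphotoxin β receptor and CD40 are known in the thymus for the maturation of medullary epithelium in response to ligands made by T cells and innate lymphocytes. iNKT1, iNKT2 and iNKT17 cells are effector subsets known for the production of interferon-γ, interleukin 4 and interleukin 17.

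The results on single loci turn mostly on 7 regions, and up to 300 bases of each are shown without bases of untranslated exons, on the plus strand of GRCm38.p6. The window of Tnfrsf4 (chr4:156013874-156014070) starts at the start codon and runs into the intron after it, and that of Tnfrsf25 (chr4:152117577-152117876) lies just upstream of a start site inside the gene. In C57BL/6 mice, Tnfrsf4 was the member promoter with the largest difference of iNKT2 cells from both other subsets, and Tnfrsf25 the one with the largest difference of iNKT17 cells. The windows of Tnfrsf11a (chr1:105784190-105784489) and Tnfsf10 (chr3:27322651-27322950) are intronic and come from the member region and the ligand region with the largest differences between iNKT1 and iNKT17 cells. Those of Tnfrsf8 (chr4:145274925-145275224), Tnfrsf22 (chr7:143643983-143644282) and Tnfrsf1b (chr4:145230683-145230982) are intronic and come from the 3 member regions that differed between genotypes. Capitals mark the letters of a searched motif on either strand.
Tnfrsf4: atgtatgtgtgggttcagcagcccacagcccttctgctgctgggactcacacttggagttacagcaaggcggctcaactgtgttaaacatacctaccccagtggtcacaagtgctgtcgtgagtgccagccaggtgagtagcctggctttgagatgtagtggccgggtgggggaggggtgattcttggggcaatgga
Tnfrsf25: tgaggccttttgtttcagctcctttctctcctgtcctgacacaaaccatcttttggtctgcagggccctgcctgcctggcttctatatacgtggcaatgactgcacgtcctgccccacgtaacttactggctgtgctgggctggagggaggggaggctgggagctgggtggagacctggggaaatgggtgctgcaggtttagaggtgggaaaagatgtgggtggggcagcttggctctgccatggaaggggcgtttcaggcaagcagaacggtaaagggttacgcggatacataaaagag
Tnfrsf11a: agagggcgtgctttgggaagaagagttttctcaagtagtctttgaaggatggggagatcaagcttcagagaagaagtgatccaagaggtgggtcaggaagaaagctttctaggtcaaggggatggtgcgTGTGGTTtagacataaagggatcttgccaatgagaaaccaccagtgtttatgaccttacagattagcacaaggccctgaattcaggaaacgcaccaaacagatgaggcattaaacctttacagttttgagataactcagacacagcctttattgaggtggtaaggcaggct
Tnfsf10: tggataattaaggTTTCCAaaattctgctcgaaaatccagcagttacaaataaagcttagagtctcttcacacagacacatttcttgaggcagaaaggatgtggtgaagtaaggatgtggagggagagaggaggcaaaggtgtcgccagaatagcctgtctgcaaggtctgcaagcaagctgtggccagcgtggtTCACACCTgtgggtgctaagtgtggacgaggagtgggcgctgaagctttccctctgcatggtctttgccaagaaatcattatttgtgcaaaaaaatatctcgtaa
Tnfrsf8: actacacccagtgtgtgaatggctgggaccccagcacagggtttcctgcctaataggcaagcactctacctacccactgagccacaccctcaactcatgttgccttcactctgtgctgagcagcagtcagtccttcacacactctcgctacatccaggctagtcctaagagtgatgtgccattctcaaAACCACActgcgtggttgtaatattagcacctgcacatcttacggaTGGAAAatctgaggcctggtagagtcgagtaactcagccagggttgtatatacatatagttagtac
Tnfrsf22: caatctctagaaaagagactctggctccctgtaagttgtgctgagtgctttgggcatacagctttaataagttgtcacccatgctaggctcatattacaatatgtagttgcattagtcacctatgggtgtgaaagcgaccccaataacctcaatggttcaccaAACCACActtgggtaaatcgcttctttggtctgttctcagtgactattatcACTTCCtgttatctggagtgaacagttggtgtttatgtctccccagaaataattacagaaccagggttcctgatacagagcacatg
Tnfrsf1b: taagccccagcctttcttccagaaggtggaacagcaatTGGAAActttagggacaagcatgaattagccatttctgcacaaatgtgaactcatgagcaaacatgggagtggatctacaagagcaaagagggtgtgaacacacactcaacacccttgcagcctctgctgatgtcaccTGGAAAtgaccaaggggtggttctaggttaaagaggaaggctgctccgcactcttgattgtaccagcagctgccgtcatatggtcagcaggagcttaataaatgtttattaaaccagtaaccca

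The 7 motifs searched were those of T-box (AGGTGTGA), Runt (AACCACA), AP-1 (TGANTCA), ETS (GGAAGT), TCF (TCAAAGG) and NFAT (TTTCCA) proteins and the NF-κB consensus. Matches can overlap, since NFAT, ETS and NF-κB letters share GGAA on one strand or TTCC on the other. The Tnfrsf11a window held 1 Runt match, the Tnfsf10 window 1 T-box and 1 NFAT match, the Tnfrsf8 window 1 Runt and 1 NFAT match, the Tnfrsf22 window 1 Runt and 1 ETS match and the Tnfrsf1b window 2 NFAT matches, whereas none of these letters were in the windows of Tnfrsf4 and Tnfrsf25. Among the 181 member regions in their full 500 bp, the shares with a match were 3.31% for T-box, 15.5% for Runt, 19.3% for AP-1 and 36.5% for ETS letters, beside 2.91%, 17.4%, 15.9% and 38.1% of all 63309 regions. The shares for TCF, NFAT and NF-κB were 12.2%, 39.2% and 9.39%, beside 9.55%, 33.7% and 8.60% of all regions. Median GC content was 50.8% in member regions and 50.0% in all regions. A match describes the letters and no binding.

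Levels are log2 insertions per kb as normalized by the authors, and differences are on the same log2 scale. iNKT1 and iNKT2 cells were checked against promoters of genes known to mark them. Summed on the linear scale over the promoters of Tbx21, Il2rb, Ifng, Klrb1c and Xcl1, iNKT1 libraries had 498 and 500 in C57BL/6 and 500 and 491 in Hivep3-/- mice, while the libraries of the other subsets had 220 to 275. The iNKT2 list, Il4, Izumo1r, Il17rb, Il6ra and Gata3, separated the subsets less, with 339 and 331 in C57BL/6 iNKT2 libraries, 275 and 271 in iNKT1 and 217 and 210 in iNKT17, and with 296 and 301, 229 and 227, and 224 and 204 in the same order in Hivep3-/- mice. As sums, both lists were highest in the libraries of their own subset in both genotypes. Gata3, the most open gene of the iNKT2 list, was higher in iNKT1 than in iNKT2 cells on the linear scale. Its means were 99.0 against 91.4 in C57BL/6 and 96.5 against 89.8 in Hivep3-/- mice. iNKT17 cells are described here by their sort alone. Of the defining genes of other cells, no promoter region was present for 4 of 4 genes of double positive thymocytes, 3 of 4 of B cells, 3 of 4 of myeloid cells and 3 of 4 of thymic epithelium. The exceptions were Pax5, Cd14 and Epcam, and their highest library values were 4.80, 4.50 and 4.40. On the linear scale the B cell gene Pax5 had 7.11 and 8.01 in C57BL/6 iNKT1, 21.2 and 22.8 in iNKT2 and 20.4 and 22.9 in iNKT17 libraries, and 12.0 and 11.3, 21.6 and 25.8, and 21.3 and 27.8 in Hivep3-/- libraries, lowest in iNKT1 libraries in both genotypes.

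The targeted gene was examined first. At the Hivep3 promoter, values lay between 6.36 and 6.72 in all 12 libraries, with overlap of the genotypes in iNKT1 libraries and lower values in Hivep3-/- libraries of the other subsets by much less than 3-fold. None of the 21 regions at the Hivep3 locus was called between genotypes by limma, with 20, 18 and 12 of them tested in iNKT1, iNKT2 and iNKT17 cells and differences of −0.41 to 1.31, −0.79 to 1.17 and −0.43 to 1.19 at the tested regions. The genotype difference in iNKT1 less that in iNKT17 cells was called by limma at an intronic region (chr4:119921048-119921547), with 1.74 (adjusted p = 0.023). In iNKT1 cells its difference was 1.31 (limma, adjusted p = 0.00636), under 3-fold. As the deleted part is not known here, these regions check nothing about the deletion.

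Subset differences within C57BL/6 mice were tested with limma at regions whose mean on the linear scale reached 5 in either group, and a region was called at an adjusted p under 0.1 and a difference of at least 3-fold. A region open in 1 subset alone enters the test through that subset. Between iNKT1 and iNKT2 cells, 27 of 173 tested member regions (15.6%) were called, beside 16.0% of all tested regions, with 17 (9.83%) higher in iNKT1 beside 7.33%, and 10 (5.78%) lower beside 8.71%. Between iNKT1 and iNKT17 cells, the members had 33 calls in 172 tests (19.2%) beside 20.5%, with 24 (14.0%) higher in iNKT1 beside 9.72% and 9 (5.23%) lower beside 10.8%. The iNKT2 and iNKT17 cells differed at 19 of 161 member regions (11.8%) beside 16.2%, 11 (6.83%) of them higher in iNKT2 beside 7.72% and 8 (4.97%) lower beside 8.49%. Median differences over the tested member regions were 0.13, 0.26 and 0.15 in that order, beside 0.01, 0.01 and 0.03 over all regions. The total shares called lay near or under those of the whole table and are no result about the family. The shares higher in iNKT1 cells lay above those of the table, which was not tested. In bulk libraries, fewer cells with an open locus and lower accessibility in each cell cannot be told apart, and this holds for every difference given here.

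In the Hivep3-/- mice, iNKT1 and iNKT2 cells differed at 28 of 177 tested member regions (15.8%) beside 17.3% of all regions, 21 (11.9%) of them higher in iNKT1 beside 8.77% and 7 (3.95%) lower beside 8.54%. For iNKT1 against iNKT17 cells the counts were 34 of 174 (19.5%) beside 19.3%, 28 (16.1%) higher beside 9.48% and 6 (3.45%) lower beside 9.83%. For iNKT2 against iNKT17 cells they were 15 of 165 (9.09%) beside 15.6%, 10 (6.06%) higher beside 7.33% and 5 (3.03%) lower beside 8.25%. The median differences were −0.03, 0.22 and 0.14, beside −0.01, 0.02 and 0.04 over all regions. Within a genotype, the comparisons share libraries. In all, 48 of 177 member regions tested (27.1%) were called in some comparison of C57BL/6 subsets, beside 29.7% of all regions tested, and 44 of 180 (24.4%) in Hivep3-/- mice, beside 29.6%. In either genotype they were 56 of 181 (30.9%), beside 34.8%, and 26 members had at least 1 of them. The 10 members with regions and no call were Cd40lg, Fas, Ltbr, Tnfrsf10b, Tnfrsf12a, Tnfrsf14, Tnfrsf17, Tnfrsf23, Tnfsf11 and Tnfsf4.

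**Figure D1:**
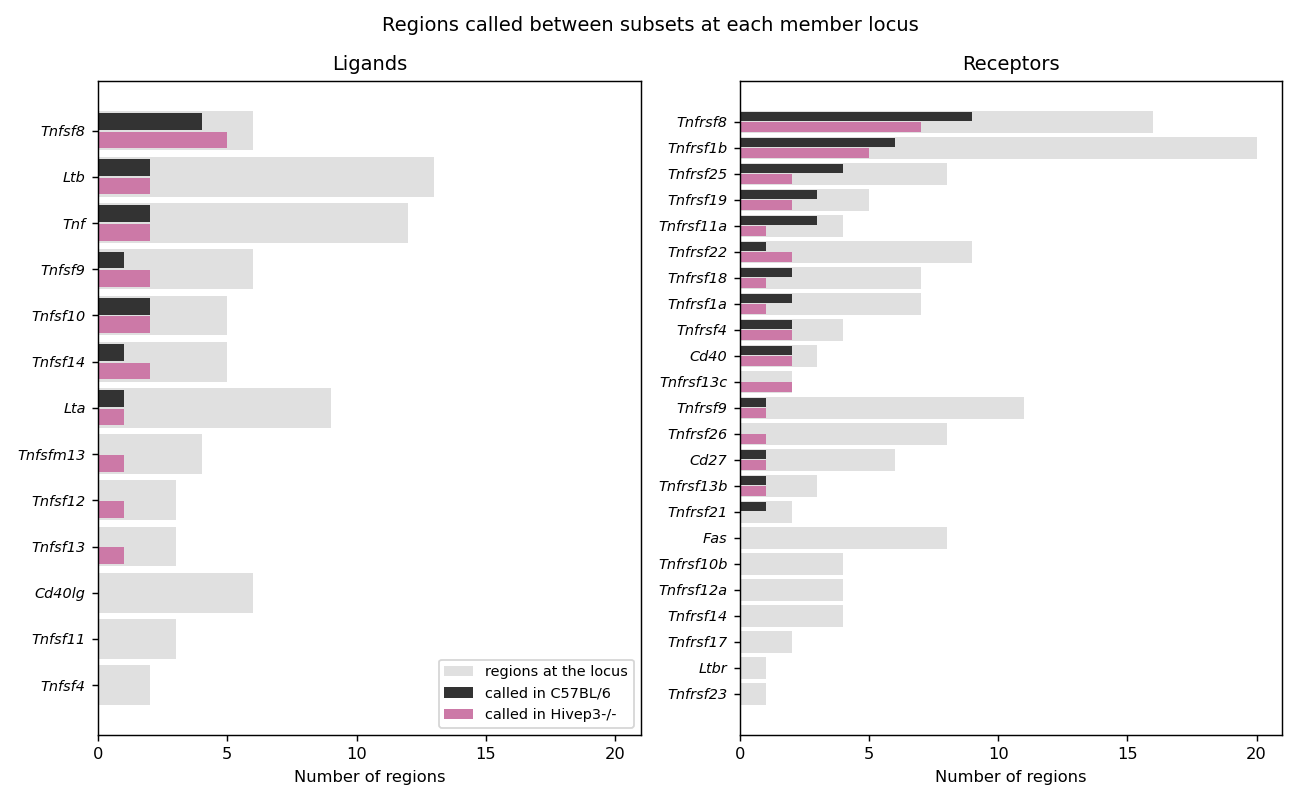
Number of regions of 500 bp at each member locus (grey) and of those called between subsets in C57BL/6 (black) and in Hivep3-/- mice (pink), for the 13 ligands and 23 receptors with regions, on axes that count regions. Tnfrsf8 has the most called regions, 9 of 16 in C57BL/6 mice, beside 29.7% of all tested regions. Regions shared by neighbouring genes are counted at each.

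Ligand loci held 51 regions. In C57BL/6 mice, 7 of 48 tested were called between iNKT1 and iNKT2 cells (5 higher in iNKT1), 8 of 47 between iNKT1 and iNKT17 (7 higher in iNKT1) and 4 of 42 between iNKT2 and iNKT17 (3 higher in iNKT2), shares of 14.6%, 17.0% and 9.52% beside 16.0%, 20.5% and 16.2% of all tested regions. Hivep3-/- mice had 9 of 50 (8 higher), 12 of 50 (10 higher) and 5 of 43 (4 higher) in the same order, shares of 18.0%, 24.0% and 11.6% beside 17.3%, 19.3% and 15.6%.

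Tnfsf10 encodes TRAIL, a ligand of death receptors. Of its 5 regions, 2 were called between subsets, both in introns, beside 34.8% of all tested regions. The region at chr3:27322551-27323050, 5.74 kb from the start site, had values of 6.07 and 5.94 in C57BL/6 iNKT1, 4.29 and 4.43 in iNKT2 and 1.40 and 2.05 in iNKT17 libraries, and of 5.97 and 5.82, 3.83 and 3.29, and 1.59 and 1.57 in the Hivep3-/- libraries. It was open in iNKT1, less so in iNKT2 and near closed in iNKT17 libraries, with no overlap between subsets. iNKT1 exceeded iNKT17 by 4.28 (SE 0.23, adjusted p = 7.33e-09) in C57BL/6 and by 4.31 (SE 0.23, adjusted p = 7.77e-09) in Hivep3-/- mice. Its C57BL/6 difference of 1.65 between iNKT1 and iNKT2 was called too, and fell under 3-fold without iNKT1 library 1 (1.58) or iNKT2 library 1 (1.57). The region at chr3:27330646-27331145 had 3.63 and 3.87 in C57BL/6 iNKT1, 0.20 and 1.11 in iNKT2 and 0.82 and 2.05 in iNKT17 libraries, and 4.34 and 4.21, 0.37 and 0.66, and 1.21 and 1.76 in Hivep3-/- libraries. Here the iNKT1 libraries stood above all others, and iNKT2 and iNKT17 overlapped in C57BL/6 mice. iNKT1 exceeded iNKT2 by 3.10 (SE 0.41, adjusted p = 4.03e-05) in C57BL/6, which a constant of 5 added to the linear values reduced to 1.48, under 3-fold, and by 3.76 (SE 0.41, adjusted p = 5.89e-06) in Hivep3-/- mice.

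Tnf, Lta and Ltb, the genes of TNF and of the lymphotoxin chains, lie side by side on chromosome 17. Of the regions at the 3 loci (13 at Ltb, 12 at Tnf and 9 at Lta, some shared), 2 were called between subsets, beside 34.8% of all tested regions. The one at chr17:35191759-35192258, 2.43 kb upstream of Ltb, had 4.09 and 4.32 in C57BL/6 iNKT1, 1.13 and 1.18 in iNKT2 and 1.96 and 2.05 in iNKT17 libraries, and 4.08 and 3.93, 0.90 and 1.47, and 2.40 and 2.14 in Hivep3-/- libraries. It was highest in iNKT1 libraries, with differences from iNKT2 of 3.05 (SE 0.26, adjusted p = 9.53e-07) in C57BL/6 and 2.82 in Hivep3-/- mice. With a constant of 5 the Hivep3-/- difference was 1.53, under 3-fold. The region at chr17:35197125-35197624, between Ltb and Tnf and singled out after its values were seen, had 4.06 and 4.35, 4.20 and 4.21, and 5.93 and 5.91 in C57BL/6 iNKT1, iNKT2 and iNKT17 libraries, and 4.38 and 4.56, 4.60 and 4.70, and 6.11 and 6.18 in Hivep3-/- libraries. The iNKT17 libraries were the highest in both genotypes. The difference of iNKT1 from iNKT17 was −1.71 in C57BL/6 mice, called with all libraries and −1.57 without iNKT1 library 1, and −1.68 in Hivep3-/- mice. With a constant of 5 it was −1.48 in both genotypes, under 3-fold. The promoter regions of Tnf, Lta and Ltb were not called in any comparison.

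Tnfsf8 encodes the CD30 ligand, and 4 of its 6 regions were called in C57BL/6 and 5 in Hivep3-/- mice. The shares of all tested regions called between subsets were 29.7% and 29.6%. In the intronic region at chr4:63859585-63860084, singled out after its values were seen, values were 4.30 and 4.46 in C57BL/6 iNKT1, 2.98 and 3.02 in iNKT2 and 1.74 and 1.20 in iNKT17 libraries, and 4.68 and 4.79, 3.23 and 3.25, and 1.32 and 1.76 in Hivep3-/- libraries. The region at chr4:63862952-63863451, 1.85 kb upstream of the start site, had 1.73 and 0.82, 2.95 and 3.06, and 0.75 and −0.41 in C57BL/6 and 2.52 and 2.29, 2.99 and 2.80, and 1.32 and 0.82 in Hivep3-/- libraries. The intronic region was thus most open in iNKT1 libraries and the upstream region in iNKT2 libraries. Upstream, iNKT2 exceeded iNKT17 by 2.83 (SE 0.41, adjusted p = 7.82e-05) in C57BL/6 mice, or by 1.07, under 3-fold, with a constant of 5. iNKT1 was lower there than iNKT2 by a called −1.73, which was −1.28 without C57BL/6 iNKT1 library 2. The Hivep3-/- differences between iNKT2 and iNKT17 lost the call in the intron without iNKT17 library 1 (1.48) and upstream without iNKT17 library 2 (1.58).

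Tnfsf9, the 4-1BB ligand gene, was called at chr17:57098283-57098782, 6.79 kb upstream. Values were 1.73 and 2.00 in C57BL/6 iNKT1, 4.72 and 5.02 in iNKT2 and 2.49 and 2.59 in iNKT17 libraries, and 3.17 and 2.89, 4.85 and 4.78, and 2.53 and 3.13 in Hivep3-/- libraries. iNKT2 libraries were the highest in both genotypes. iNKT1 differed from iNKT2 by −3.01 (SE 0.23, adjusted p = 4.28e-07) in C57BL/6 and by −1.79 in Hivep3-/- mice. At Tnfsf14, which encodes LIGHT, a region 4.32 kb upstream (chr17:57198248-57198747) had −1.38 and −2.10 in C57BL/6 iNKT2 and 1.03 and 2.54 in iNKT17 libraries, and 0.20 and −0.78 against 2.73 and 3.63 in Hivep3-/- libraries. iNKT1 libraries lay between 0.35 and 1.02. The iNKT17 libraries were above the iNKT2 libraries in both genotypes. The C57BL/6 means were too low to be tested, and in Hivep3-/- mice iNKT2 differed from iNKT17 by −3.47 (adjusted p = 0.000303), or by −1.28 and under 3-fold with a constant of 5. It entered the test through Hivep3-/- iNKT17 cells and was called too without a filter. A region downstream of Tnfsf14 (chr17:57182869-57183368), singled out after its values were seen, had 4.37 and 4.49 in C57BL/6 iNKT1, 2.24 and 2.07 in iNKT2 and 2.16 and 2.30 in iNKT17 libraries, and 4.43 and 4.39, 1.29 and 2.00, and 1.88 and 2.45 in Hivep3-/- libraries. There the iNKT1 libraries were the highest in both genotypes. Differences from iNKT2 and iNKT17 were 2.27 and 2.20 in C57BL/6 and 2.77 and 2.25 in Hivep3-/- mice, all called. With a constant of 5, the C57BL/6 differences were 1.49 and 1.45 and the Hivep3-/- difference from iNKT17 was 1.46, all under 3-fold.

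Receptor loci held 130 regions. In C57BL/6 mice, 20 of 125 tested were called between iNKT1 and iNKT2 cells (12 higher in iNKT1), 25 of 125 between iNKT1 and iNKT17 (17 higher in iNKT1) and 15 of 119 between iNKT2 and iNKT17 (8 higher in iNKT2), shares of 16.0%, 20% and 12.6% beside 16.0%, 20.5% and 16.2% of all tested regions. Hivep3-/- mice had 19 of 127 (13 higher), 22 of 124 (18 higher) and 10 of 122 (6 higher), shares of 15.0%, 17.7% and 8.20% beside 17.3%, 19.3% and 15.6%. The shares of these lists are described and were not tested.

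Among the 7 costimulatory receptors (Cd27, Tnfrsf4, Tnfrsf8, Tnfrsf9, Tnfrsf14, Tnfrsf18 and Tnfrsf25), the C57BL/6 counts were 10 of 53, 12 of 52 and 9 of 50 tested regions for iNKT1 against iNKT2, iNKT1 against iNKT17 and iNKT2 against iNKT17, and the Hivep3-/- counts 9 of 54, 10 of 53 and 5 of 51. The C57BL/6 shares of 18.9%, 23.1% and 18.0% and the Hivep3-/- shares of 16.7%, 18.9% and 9.80% stand beside 16.0%, 20.5% and 16.2%, and 17.3%, 19.3% and 15.6%, of all tested regions. The promoter region of Tnfrsf4 (chr4:156013571-156014070), which encodes OX40, had 1.35 and 1.13 in C57BL/6 iNKT1, 5.51 and 5.21 in iNKT2 and 2.03 and 1.88 in iNKT17 libraries, and 1.40 and 1.10, 6.41 and 6.47, and 2.24 and 2.00 in Hivep3-/- libraries. It was open in iNKT2 libraries alone, with no overlap between subsets within a genotype. iNKT1 differed from iNKT2 by −4.12 (SE 0.22, adjusted p = 2.89e-08) in C57BL/6 and by −5.19 (SE 0.22, adjusted p = 4.27e-09) in Hivep3-/- mice. iNKT2 exceeded iNKT17 by 3.40 (adjusted p = 7.53e-08) and 4.32 (adjusted p = 1.69e-08). Without each single library, all 4 calls were kept.

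Tnfrsf25 encodes DR3, a costimulatory receptor with a death domain. Its region just upstream of an inner start site (chr4:152117430-152117929) had 2.05 and 2.45 in C57BL/6 iNKT1, 2.17 and 1.29 in iNKT2 and 5.14 and 5.01 in iNKT17 libraries, and 1.56 and 1.60, 2.39 and 2.45, and 5.18 and 5.41 in Hivep3-/- libraries. The iNKT17 libraries stood far above all others. iNKT1 and iNKT2 differed from iNKT17 by −2.82 (SE 0.27, adjusted p = 1.37e-06) and −3.35 (SE 0.27, adjusted p = 5.41e-07) in C57BL/6, and −3.71 (adjusted p = 1.3e-07) and −2.88 (adjusted p = 2.13e-06) in Hivep3-/- mice. The main promoter region of Tnfrsf25 was open in all libraries and not called. The locus had 4 of its 8 regions called in C57BL/6 mice, beside 29.7% of all tested regions, and 2 in Hivep3-/- mice, beside 29.6%. Of the C57BL/6 regions, 2 lay in the gene or at the inner start and 2 in the flanks. The coding exon region, called between C57BL/6 iNKT2 and iNKT17, fell under 3-fold without iNKT2 library 2 (−1.50) or iNKT17 library 1 (−1.54).

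Tnfrsf9 encodes 4-1BB. Its promoter region, at a start site inside the gene, was the most open promoter of the family, and a region downstream of the gene (chr4:150950939-150951438) was called, with 3.00 and 3.17 in C57BL/6 iNKT1, 4.02 and 4.06 in iNKT2 and 0.49 and 2.09 in iNKT17 libraries, and 3.19 and 3.18, 4.23 and 4.14, and 1.41 and 1.35 in Hivep3-/- libraries. iNKT17 libraries were the lowest in both genotypes. iNKT2 exceeded iNKT17 by 2.75 (SE 0.37, adjusted p = 3.96e-05) in C57BL/6, or 1.48 and under 3-fold with a constant of 5, and by 2.81 (adjusted p = 3.55e-05) in Hivep3-/- mice. The C57BL/6 call of iNKT1 over iNKT17 (1.80) was 1.00 and lost without iNKT17 library 1. Cd27 was called upstream of the gene (chr6:125244526-125245025), with 4.48 and 4.13, 3.06 and 2.91, and 0.82 and 1.31 in C57BL/6 iNKT1, iNKT2 and iNKT17 libraries and 3.75 and 3.50, 3.05 and 2.55, and 0.74 and 1.57 in Hivep3-/- libraries. The Cd27 order was thus iNKT1, iNKT2 and iNKT17 from high to low. This region was singled out after its values were seen, and its Hivep3-/- difference between iNKT2 and iNKT17 (1.65) lost the call without iNKT2 library 1 (1.40) or iNKT17 library 1 (1.23).

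**Figure D2:**
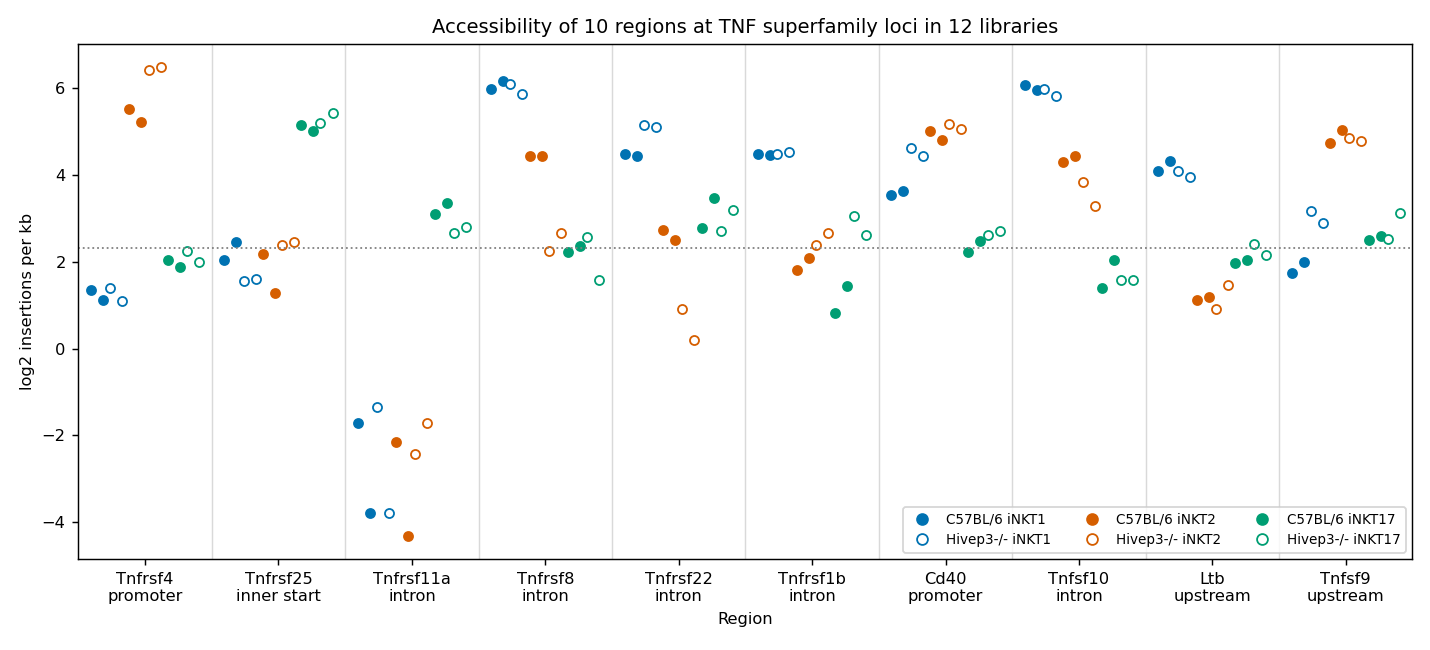
Accessibility in log2 insertions per kb (vertical axis) of 10 regions (horizontal axis) in each of the 12 libraries, with filled points for C57BL/6 and open points for Hivep3-/- mice and a dotted line at the linear mean of 5 used as the limit for testing. Tnfrsf4 is high in iNKT2 libraries (5.21 to 6.47), Tnfrsf25 and Tnfrsf11a in iNKT17 libraries and Tnfsf10 in iNKT1 libraries.

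The Tnfrsf8 and Tnfrsf1b loci, CD30 and TNF receptor 2, lie next to each other on chromosome 4, in the same direction, and share no region. Tnfrsf8 had the most called regions, 9 of 16 in C57BL/6 mice with 16 calls and 7 of 16 in Hivep3-/- mice. Of all tested regions, 29.7% and 29.6% were called between subsets in the 2 genotypes. Without some single library, C57BL/6 calls were lost at chr4:145263575-145264074, chr4:145283351-145283850, chr4:145301900-145302399 and chr4:145319176-145319675. The call of iNKT1 over iNKT2 at chr4:145274825-145275324 was lost in this way too. The intronic region at chr4:145305815-145306314, 9.08 kb from the start site, had 3.60 and 3.75 in C57BL/6 iNKT1, 0.36 and 0.42 in iNKT2 and −0.41 and −0.88 in iNKT17 libraries, and 3.98 and 4.23, −0.13 and −3.06, and 0.87 and 0.82 in Hivep3-/- libraries. It was open in iNKT1 libraries alone, and its iNKT2 libraries of Hivep3-/- mice stood far apart. iNKT1 exceeded iNKT2 by 3.28 (SE 0.68, adjusted p = 0.0012) in C57BL/6, or by 1.49 and under 3-fold with a constant of 5, and by 5.70 (SE 0.68, adjusted p = 1.14e-05) in Hivep3-/- mice. Compared with iNKT17, iNKT1 was higher by 4.32 (adjusted p = 0.000103) in C57BL/6 mice. At the region 40.1 kb from the start site (chr4:145274825-145275324), iNKT1 exceeded iNKT17 by 3.77 (SE 0.26, adjusted p = 8.01e-08) in C57BL/6 and by 3.90 (SE 0.26, adjusted p = 6.76e-08) in Hivep3-/- mice.

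Not all Tnfrsf8 regions followed the same order. The 7 calls of C57BL/6 mice in the comparison of iNKT1 with iNKT2 divided into 5 higher and 2 lower in iNKT1. In the comparison of iNKT1 with iNKT17, 6 of 6 were higher in iNKT1, beside 9.72% higher and 10.8% lower of all tested regions. Between iNKT2 and iNKT17, 2 of 3 were higher in iNKT2. At the regions 9.08, 40.1, 50.7 and 51.3 kb from the start site, C57BL/6 iNKT17 means were −0.65, 2.29, 0.70 and 1.94. These means lay under the limit for testing, so the filter sets the direction of the iNKT1 against iNKT17 calls there. Of the 20 Tnfrsf1b regions, 6 were called in C57BL/6 mice, near the 29.7% of all tested regions, so this count is no result about the locus. Calls of iNKT1 against iNKT2 were higher in iNKT1 at 4 of 4 regions, and those against iNKT17 at 5 of 6. At the regions 16.0, 30.8 and 34.6 kb after the start site, the C57BL/6 iNKT2 and iNKT17 means were under the limit for testing. The filter sets the direction of the calls there. None was called between iNKT2 and iNKT17. The called regions of Tnfrsf1b lay from 16.0 kb after the start site to beyond the end of the gene, 4 of them nearer to the start site of Vps13d, while group means over the 7 regions from 60.5 to 78.8 kb on the plotted scale stayed between 4.32 and 8.08 with no call. Over the 3 receptors of TNF and lymphotoxin (Tnfrsf1a, Tnfrsf1b and Ltbr), C57BL/6 mice had 5 of 28, 8 of 28 and 0 of 23 regions called and Hivep3-/- mice 3 of 28, 6 of 27 and 0 of 26 in the comparisons of iNKT1 with iNKT2, iNKT1 with iNKT17 and iNKT2 with iNKT17. The shares were 17.9%, 28.6% and 0% in C57BL/6 and 10.7%, 22.2% and 0% in Hivep3-/- mice, beside 16.0%, 20.5% and 16.2%, and 17.3%, 19.3% and 15.6%, of all tested regions.

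**Figure D3:**
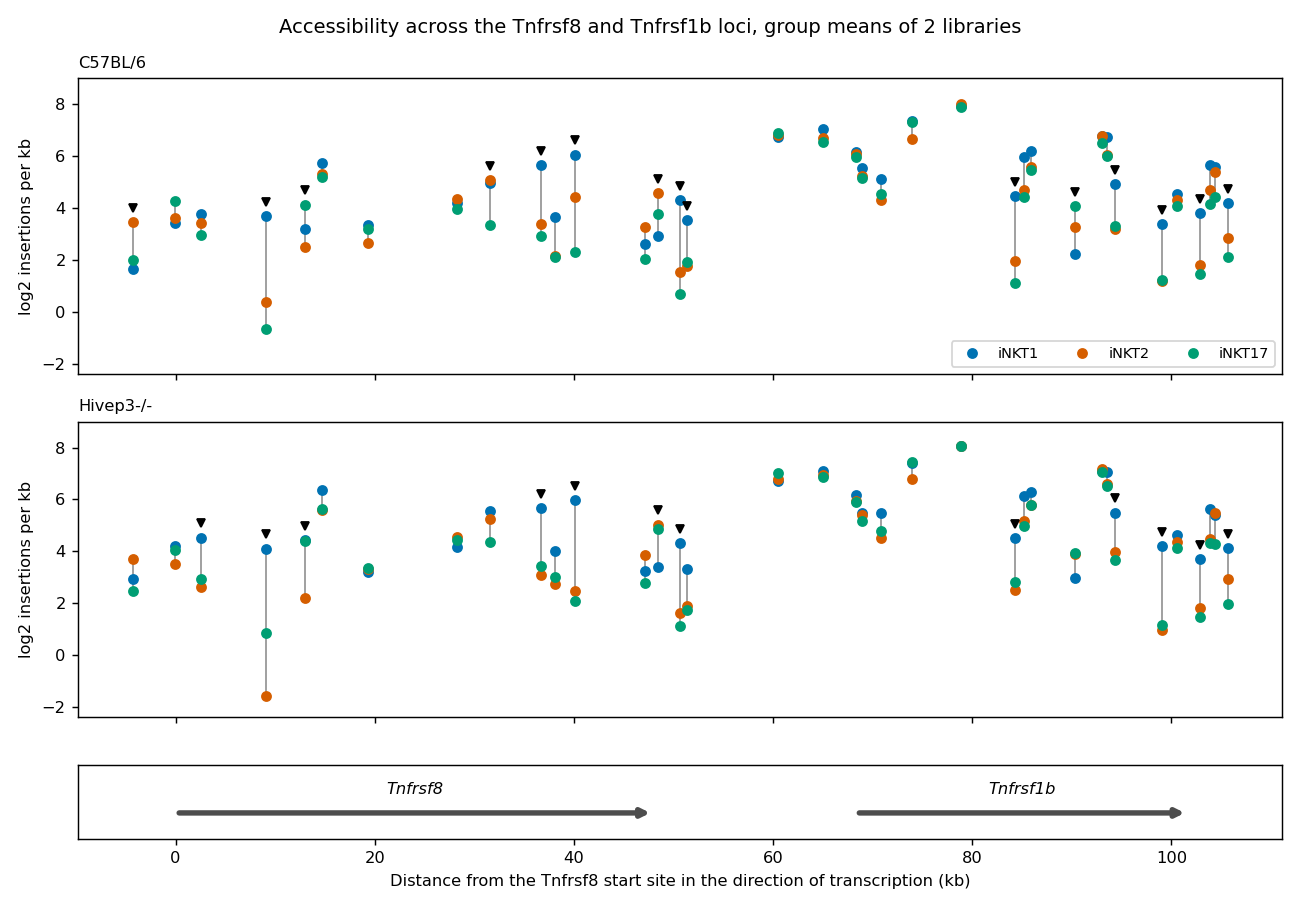
Group means of 2 libraries (vertical axis, log2 insertions per kb) at the regions of the Tnfrsf8 and Tnfrsf1b loci by distance in kb from the Tnfrsf8 start site, with a panel for each genotype, a triangle over regions called between subsets and arrows for the gene bodies. iNKT1 means lie above the others at most called regions, such as 9.10 kb and 40.1 kb. Where the other means are under the limit for testing, the filter sets that order. The region at 40.1 kb is lower in Hivep3-/- iNKT2 cells (2.45) than in C57BL/6 iNKT2 cells (4.42).

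Tnfrsf11a encodes RANK, and its decoy Tnfrsf11b had no region. In C57BL/6 mice, 2 of 4 tested regions were called between iNKT1 and iNKT17 cells and 3 of 4 between iNKT2 and iNKT17 cells, each higher in iNKT17, beside 20.5% and 16.2% of all tested regions, and in Hivep3-/- mice 1 of 3 in either comparison, beside 19.3% and 15.6%. Of the 4 regions, 3 reached the limit for testing in C57BL/6 mice through iNKT17 cells alone, so their shared direction is set by the filter. The intronic region at chr1:105784090-105784589 had −1.72 and −3.79 in C57BL/6 iNKT1, −2.16 and −4.31 in iNKT2 and 3.10 and 3.34 in iNKT17 libraries, and −1.35 and −3.79, −2.43 and −1.72, and 2.65 and 2.79 in Hivep3-/- libraries. It was open in iNKT17 libraries alone, and 1 C57BL/6 iNKT1 and 1 C57BL/6 iNKT2 library were at the lowest value of their column. The differences of iNKT1 and iNKT2 from iNKT17 were −5.97 (SE 1.02, adjusted p = 0.000224) and −6.45 (SE 1.02, adjusted p = 0.000156) in C57BL/6 mice, and −5.29 (adjusted p = 0.000645) and −4.80 (adjusted p = 0.00159) in Hivep3-/- mice. With a constant of 5 they were −1.46, −1.48, −1.15 and −1.15, all under 3-fold, so the size of these differences rests on how near 0 the closed libraries are. The region was called too when all regions were tested without a filter, and was not tested where the mean over all 12 libraries had to reach 5. A second intron region (chr1:105805503-105806002) had 0.36 and 1.69, 1.31 and 1.04, and 3.55 and 3.71 in C57BL/6 libraries. There iNKT2 differed from iNKT17 by −2.46 (SE 0.44, adjusted p = 0.000401), or by −1.26 with a constant of 5. At the other called intron region (chr1:105802897-105803396), the call of iNKT2 against iNKT17 was lost without C57BL/6 iNKT17 library 1 (−1.52) or with a constant of 1 (−1.44).

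Tnfrsf19, also called TROY, had 5 regions, and 3 were called in C57BL/6 mice, beside 29.7% of all tested regions. The intronic region at chr14:60993448-60993947 had 0.67 and 0.36 in C57BL/6 iNKT1, 3.09 and 3.04 in iNKT2 and 4.17 and 3.74 in iNKT17 libraries, and −1.35 and −0.17, 3.40 and 3.10, and 3.64 and 3.54 in Hivep3-/- libraries. The intronic region at chr14:61012318-61012817 had 0.67 and 1.34, 4.26 and 3.78, and 2.20 and 1.83 in C57BL/6 and 0.49 and 1.57, 4.14 and 4.47, and 2.08 and 1.23 in Hivep3-/- libraries. Both were low in iNKT1 libraries, and the second was highest in iNKT2 libraries. In the former, iNKT1 differed from iNKT17 by −3.44 (SE 0.35, adjusted p = 2.37e-06) in C57BL/6 and by −4.34 (adjusted p = 3.22e-07) in Hivep3-/- mice, and from iNKT2 by −4.01 (adjusted p = 8.17e-07) in Hivep3-/- mice, or by −1.37 and under 3-fold with a constant of 5. In the latter, iNKT1 differed from iNKT2 by −3.01 (SE 0.40, adjusted p = 3.77e-05) and −3.27 (adjusted p = 1.47e-05) in the 2 genotypes, and iNKT2 exceeded iNKT17 by 2.65 (adjusted p = 0.000108) in Hivep3-/- mice.

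The 5 death domain receptors (Fas, Tnfrsf1a, Tnfrsf10b, Tnfrsf21 and Tnfrsf25) had 2 of 28, 5 of 29 and 3 of 27 regions called in C57BL/6 mice and 0 of 29, 3 of 29 and 1 of 29 in Hivep3-/- mice, and no region of Fas was among them. The 4 receptors known for B cell survival (Tnfrsf13b, Tnfrsf13c, Tnfrsf17 and Cd40) had 1 of 10, 0 of 9 and 2 of 9 in C57BL/6 and 3 of 10, 2 of 9 and 2 of 9 in Hivep3-/- mice. Of all tested regions, 16.0%, 20.5% and 16.2% were called in C57BL/6 and 17.3%, 19.3% and 15.6% in Hivep3-/- mice, and the death domain receptors had 7.14%, 17.2% and 11.1%, and 0%, 10.3% and 3.45%. With at most 10 regions, the B cell list is given as counts. The comparisons stand in the order iNKT1 against iNKT2, iNKT1 against iNKT17 and iNKT2 against iNKT17, and Tnfrsf25 and Tnfrsf1a each count in 2 lists. Between genotypes, limma called none of the death domain regions. Singled out after they were seen, their shares at an unadjusted p under 0.05 were 55.6%, 50.0% and 17.9% in iNKT1, iNKT2 and iNKT17 cells. All tested regions had 17.8%, 25.3% and 15.8%. Their median differences were −0.25, 0.29 and 0.09. These shares and medians were not tested.

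At promoters, 60 of the 181 regions lay within 1000 bp of a start site of a member. In C57BL/6 mice, 3 of 57, 3 of 56 and 4 of 57 of these were called in the 3 comparisons, shares of 5.26%, 5.36% and 7.02%, and of the 121 regions elsewhere 24 of 116, 30 of 116 and 15 of 104, shares of 20.7%, 25.9% and 14.4%. In Hivep3-/- mice the shares were 10.0%, 8.77% and 7.02% at promoters and 18.8%, 24.8% and 10.2% elsewhere. Over the whole table, regions within 1000 bp of a start site of any protein-coding gene had 4.65%, 6.48% and 4.49% in C57BL/6 and 4.90%, 5.75% and 4.39% in Hivep3-/- mice, and all others 22.3%, 28.1% and 22.6%, and 24.1%, 26.7% and 21.7%. The members thus show a contrast of promoters with other regions that the whole table also has, described without a test. Taking the most open promoter region of each gene, 34 members had one, and their C57BL/6 means ranged from 1.24 to 7.83 in iNKT1, from 2.00 to 7.19 in iNKT2 and from 1.68 to 7.12 in iNKT17 cells, with medians of 5.13, 5.38 and 5.08. In Hivep3-/- mice they ranged from 1.25 to 7.84, 0.83 to 7.04 and 1.28 to 7.04, with medians of 5.17, 5.31 and 5.16. The promoter regions of 7 members (20.6%, beside 7.17% of the 12933 protein-coding genes with such a region) were called in some comparison, and 27 were not. Tnfsf12 and Tnfsfm13, which share 1 region, are both among the 7, and the difference in these shares was not tested.

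Besides Tnfrsf4, these 7 were Cd40, Tnfrsf13b, Tnfrsf13c, Tnfrsf21 and the pair Tnfsf12 and Tnfsfm13, which share a promoter region. The Cd40 promoter had 3.53 and 3.63 in C57BL/6 iNKT1, 5.01 and 4.80 in iNKT2 and 2.23 and 2.49 in iNKT17 libraries, and 4.61 and 4.42, 5.17 and 5.05, and 2.61 and 2.70 in Hivep3-/- libraries. iNKT2 libraries were the highest and iNKT17 libraries the lowest, and iNKT2 exceeded iNKT17 by 2.55 (SE 0.17, adjusted p = 1.05e-07) in C57BL/6 and by 2.45 in Hivep3-/- mice. Tnfrsf13b, the gene of TACI, with its region at a start site inside the gene, had 3.00 and 2.78, 4.67 and 4.74, and 3.92 and 3.82 in C57BL/6 and 2.65 and 2.56, 4.95 and 5.08, and 3.89 and 3.40 in Hivep3-/- libraries. It was lowest in iNKT1 libraries, which differed from iNKT2 by −1.81 (SE 0.19) and −2.41. With a constant of 5 the C57BL/6 difference was −1.32, under 3-fold. The B cell gene Pax5 was also lowest in iNKT1 libraries, and a part of B cells in the results at Tnfrsf13b and the other receptors of B cell survival was not tested. Tnfrsf21, which encodes DR6, had 3.45 and 3.58, 4.65 and 4.75, and 5.61 and 5.44 in C57BL/6 and 4.22 and 4.32, 4.97 and 5.02, and 5.05 and 5.20 in Hivep3-/- libraries. The iNKT1 libraries were the lowest, and the difference from iNKT17 passed the threshold in C57BL/6 mice (−2.01, SE 0.13).

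Tnfrsf13c, the gene of the BAFF receptor, and the promoter shared by Tnfsf12 and Tnfsfm13 passed the threshold in Hivep3-/- mice and did not in C57BL/6 mice. The values of Tnfrsf13c were 4.41 and 4.40, 3.29 and 3.57, and 3.20 and 3.51 in C57BL/6 and 4.75 and 4.71, 2.86 and 2.98, and 3.10 and 3.25 in Hivep3-/- libraries, with iNKT1 above iNKT2 by 1.81 (SE 0.18) in the latter. That difference was 1.33, under 3-fold, with a constant of 5. The shared promoter (chr11:69695680-69696179) had 2.35 and 2.07, 1.86 and 2.13, and 1.40 and 1.96 in C57BL/6 and 2.85 and 3.15, 0.90 and 0.76, and 0.99 and 1.57 in Hivep3-/- libraries. iNKT1 libraries were the highest at both promoters in Hivep3-/- mice. The shared promoter was higher in Hivep3-/- iNKT1 than in iNKT2 cells by 2.17 and than in iNKT17 cells by 1.72. The latter call was lost without Hivep3-/- iNKT1 library 2 (1.57) or iNKT17 library 1 (1.43), and with a constant of 1 (1.39) or 5 (0.80). The former was 0.94, under 3-fold, with a constant of 5. The genotype difference in iNKT1 less that in iNKT2 cells was called at the shared promoter, with 1.96 (adjusted p = 0.0252), a call lost without C57BL/6 iNKT2 library 2 (adjusted p = 0.102) or Hivep3-/- iNKT1 library 2 (adjusted p = 0.129) and with a constant of 1 (1.52) or 5 (0.84). At Tnfrsf13c it was 0.83 (SE 0.25, adjusted p = 0.0712), under 3-fold and not called.

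The subset comparisons of the 2 genotypes share no library, so their calls can be set against each other. For iNKT1 against iNKT2 cells, 20 regions were called in both with the same direction, 74.1% of the 27 C57BL/6 calls and 71.4% of the 28 Hivep3-/- calls. For iNKT1 against iNKT17 cells there were 25 (75.8% and 73.5%), and for iNKT2 against iNKT17 cells 12 (63.2% and 80.0%). Over the whole table, the calls in both with the same direction were 69.7% and 64.2%, 76.2% and 81.2%, and 73.0% and 76.4% of the C57BL/6 and Hivep3-/- calls in the same order. Each member call of 1 genotype had the same sign of the difference in the other, as had 97.5% to 99.7% of the calls of the whole table, so this overlap is no result about the family.

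**Figure D4:**
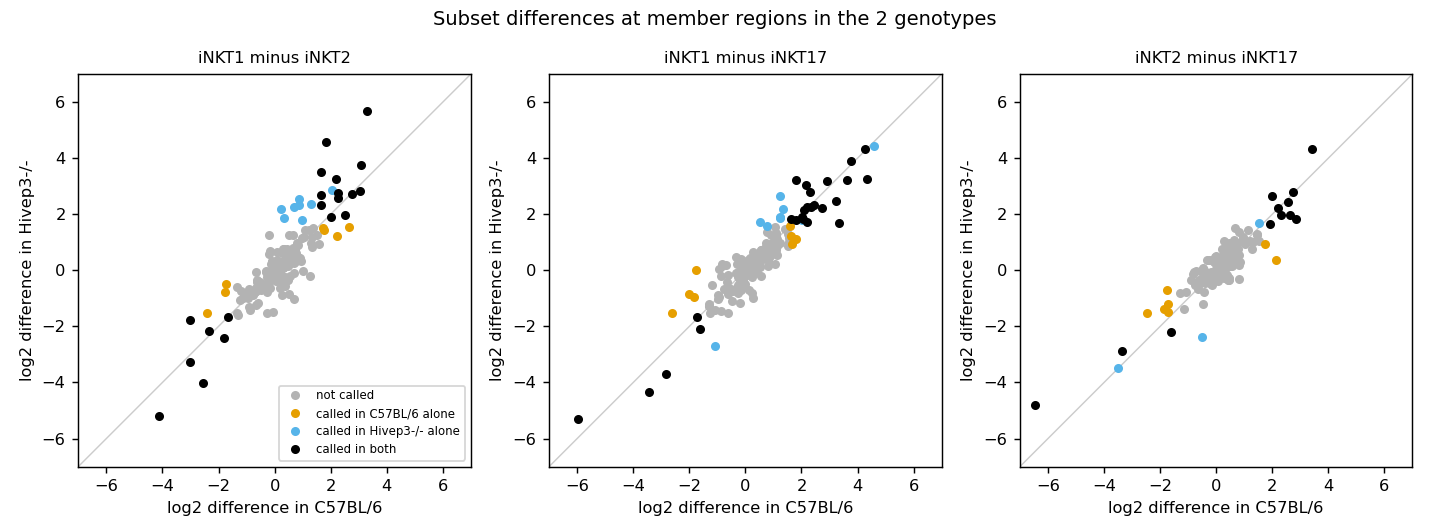
Difference between subsets (log2) in C57BL/6 (horizontal axis) and Hivep3-/- mice (vertical axis) for each member region tested in either, with a panel for each pair of subsets, colours for the genotype in which a region was called and a grey line of equal values. The black points, called in both genotypes, number 20, 25 and 12.

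Between genotypes, few member regions differed. In iNKT1 cells 0 of 170 tested member regions were called by limma, beside 1.15% of all tested regions (0.890% higher and 0.264% lower in Hivep3-/- cells). At an unadjusted p under 0.05 there were 46 member regions (27.1%, beside 17.8% of all tested regions), and 16 (9.41%, beside 9.42%) had an adjusted p under 0.1 at any fold. The median difference was 0.01, beside −0.02 over all regions. In iNKT2 cells 2 of 161 (1.24%) were called, beside 1.68%, both lower in Hivep3-/- cells beside 1.20% of all regions, and none higher beside 0.474%, with 46 member regions (28.6%, beside 25.3%) at an unadjusted p under 0.05 and 28 (17.4%, beside 16.4%) at an adjusted p under 0.1. The median difference in iNKT2 cells was 0.13, above 0 while both called regions were lower, beside 0.00 over all regions. In iNKT17 cells 1 of 154 (0.649%) was called, beside 0.271%, which was higher in Hivep3-/- cells beside 0.133%, and none lower beside 0.138%, with 34 (22.1%, beside 15.8%) at an unadjusted p under 0.05, 17 (11.0%, beside 4.65%) at an adjusted p under 0.1 and a median of 0.09 beside −0.01. These shares moved with the fit in all 3 subsets. With the replicate block, the shares of members at an adjusted p under 0.1 were 21.2%, 27.3% and 20.1% in iNKT1, iNKT2 and iNKT17 cells, beside 14.8%, 24.8% and 11.3% of all regions. Leaving out 1 library brought them as low as 2.34% (beside 3.26%, without C57BL/6 iNKT1 library 1), 8.07% (beside 7.82%, without C57BL/6 iNKT2 library 1) and 1.29% (beside 0.846%, without C57BL/6 iNKT17 library 1). At an unadjusted p under 0.05, the iNKT1 share was 11.7% beside 11.3% without C57BL/6 iNKT1 library 1 and 10.6% beside 10.9% without Hivep3-/- iNKT1 library 2, so the higher share of members there rests on single libraries. With at most 2 regions each, the shares called are no result about the family, and the other shares and medians were not tested against those of the table.

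The intronic region of Tnfrsf8 at chr4:145274825-145275324 had 5.97 and 6.16 in C57BL/6 iNKT1, 4.42 and 4.42 in iNKT2 and 2.23 and 2.36 in iNKT17 libraries, and 6.09 and 5.85, 2.25 and 2.65, and 2.57 and 1.57 in Hivep3-/- libraries. The iNKT2 libraries of the 2 genotypes did not overlap, and those of iNKT1 and iNKT17 did. In iNKT2 cells the region fell by 1.97 (SE 0.26, adjusted p = 0.000685, lower in 2 of 2 libraries). With a constant of 5 the difference was −1.33 and under 3-fold. The C57BL/6 call of iNKT1 over iNKT2 at this region (1.65) was lost without iNKT1 library 2 (1.55).

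Tnfrsf22 encodes a decoy receptor for TRAIL. Its intronic region at chr7:143643883-143644382, 5.52 kb from the start site, had 4.47 and 4.42 in C57BL/6 iNKT1, 2.72 and 2.49 in iNKT2 and 2.77 and 3.46 in iNKT17 libraries, and 5.14 and 5.09, 0.90 and 0.20, and 2.70 and 3.19 in Hivep3-/- libraries. The iNKT2 libraries were lower in Hivep3-/- mice without overlap, and the iNKT1 libraries of Hivep3-/- mice lay above those of C57BL/6 mice by less than 3-fold. In iNKT2 cells the region fell by 2.06 (SE 0.29, adjusted p = 0.000851), which was −1.52 with a constant of 1 and −0.77 with a constant of 5, both under 3-fold. Within Hivep3-/- mice, iNKT1 exceeded iNKT2 there by 4.56 (SE 0.29, adjusted p = 5.06e-08). At the promoter of a shorter Tnfrsf22 transcript (chr7:143636518-143637017), iNKT1 exceeded iNKT17 in Hivep3-/- mice by 4.42 (SE 0.81, adjusted p = 0.000416), or by 1.15 and under 3-fold with a constant of 5. Values there were 2.62 and 3.06 in iNKT1 and −3.06 and −0.10 in iNKT17 libraries, 1 of the latter being at the lowest value of its column.

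Beside the falls in iNKT2 cells stand the values of promoters that mark iNKT1 cells. Of the 5 iNKT1 markers, Ifng was called between the genotypes in iNKT2 cells, with 4.93 and 4.69 in C57BL/6 and 2.60 and 2.85 in Hivep3-/- libraries. Xcl1 had 4.12 and 3.86 against 3.33 and 2.61, Tbx21 4.63 and 4.53 against 4.18 and 4.38, Il2rb 7.62 and 7.62 against 7.47 and 7.64 and Klrb1c 2.67 and 2.30 against 3.05 and 2.95. The sum of the list on the linear scale was 275 and 266 in C57BL/6 and 220 and 241 in Hivep3-/- iNKT2 libraries, all 5 genes had a linear mean of at least 5 in both groups, and Il2rb was the most open (197 and 188). The iNKT2 markers also summed to less in Hivep3-/- iNKT2 libraries, 296 and 301 against 339 and 331, with Gata3 the most open (89.8 and 91.4). The part of cells of another subset in the Tnfrsf8 and Tnfrsf22 results was not tested.

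In iNKT17 cells, the call was an intronic region of Tnfrsf1b at chr4:145230583-145231082, 16.0 kb from the start site. Values were 4.47 and 4.46 in C57BL/6 iNKT1, 1.81 and 2.09 in iNKT2 and 0.82 and 1.43 in iNKT17 libraries, and 4.48 and 4.52, 2.39 and 2.65, and 3.05 and 2.61 in Hivep3-/- libraries. The iNKT1 libraries were alike in both genotypes, and the iNKT17 libraries of Hivep3-/- mice lay above those of C57BL/6 mice. The rise in iNKT17 cells was 1.70 (SE 0.25, adjusted p = 0.00647), and it lost the call without C57BL/6 iNKT17 library 1 (1.40, adjusted p = 0.0682) or Hivep3-/- iNKT17 library 1 (1.49, adjusted p = 0.0297), with a constant of 1 (1.34) and with a constant of 5 (0.75). The iNKT1 markers summed to 257 and 268 in C57BL/6 and 239 and 265 in Hivep3-/- iNKT17 libraries, with Il2rb the most open (236 and 222), 3 of 5 at a linear mean of at least 5, and Ifng (0.18 and 0.91 against −0.41 and −0.10) and Xcl1 (−0.41 and 0.44 against 0.74 and 0.82) near closed.

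**Figure D5:**
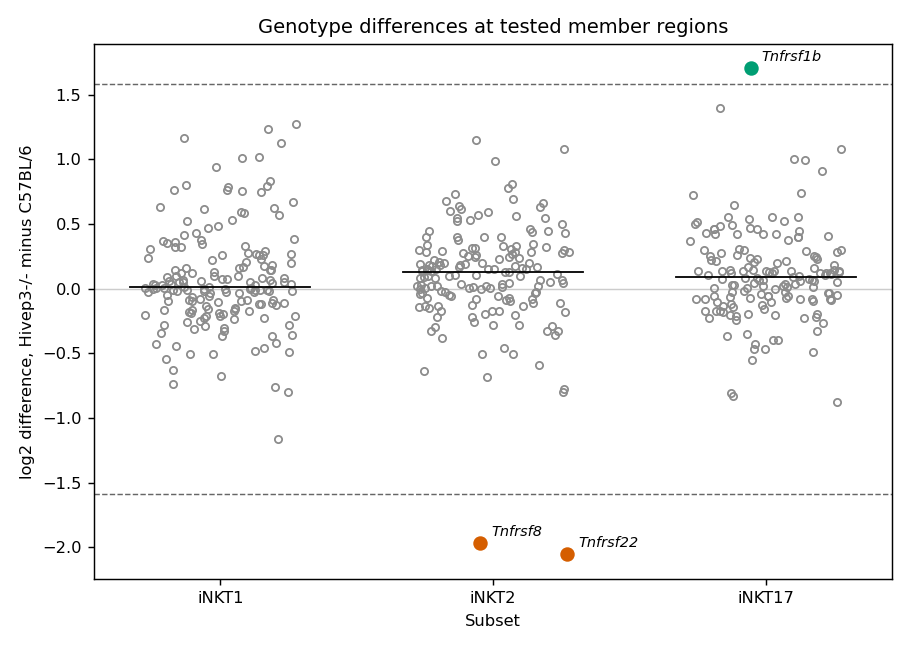
Difference between Hivep3-/- and C57BL/6 cells (vertical axis, log2) at each tested member region in the 3 subsets (horizontal axis), with filled points for called regions, a bar at the median and dashed lines at 3-fold. The called regions are Tnfrsf8 (−1.97) and Tnfrsf22 (−2.06) in iNKT2 and Tnfrsf1b (1.70) in iNKT17 cells, and no region is called in iNKT1 cells.

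Whether the genotype difference itself differed between subsets was tested with interaction terms. Between iNKT1 and iNKT2 cells, 5 of 177 tested member regions (2.82%) were called beside 3.06% of all tested regions, between iNKT1 and iNKT17 cells 2 of 179 (1.12%) beside 1.42%, and between iNKT2 and iNKT17 cells 2 of 166 (1.20%) beside 1.02%. They lay at Tnfrsf8, Tnfrsf22, Tnfsf8, Tnfsf12 and Tnfsfm13, Fas, Tnfrsf1b and Tnfrsf19. At Tnfrsf8 the difference between the genotype changes in iNKT1 and iNKT2 cells was 1.88 (SE 0.37, adjusted p = 0.0108), and at Tnfrsf22 it was 2.73 (SE 0.40, adjusted p = 0.00256). Both kept the call without each single library, and with a constant of 5 they were 1.24 and 1.34, under 3-fold.

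Genes that act downstream of these receptors were described as a list of 23 with 158 regions, none of them shared with the members. Among C57BL/6 subsets, 7 regions were higher and 10 lower in iNKT1 than in iNKT2 cells of 152 tested, 15 higher and 7 lower in iNKT1 than in iNKT17 cells of 150, and 10 higher and 2 lower in iNKT2 than in iNKT17 cells of 150. Hivep3-/- mice had 4 and 11 of 154, 13 and 3 of 153, and 10 and 4 of 156. The shares called were 11.2%, 14.7% and 8.00% in C57BL/6 beside 16.0%, 20.5% and 16.2% of all tested regions, and 9.74%, 10.5% and 8.97% in Hivep3-/- mice beside 17.3%, 19.3% and 15.6%, without a test. At Traf5, an adaptor of costimulatory receptors, singled out after its values were seen, 7 of 11 regions were called between subsets, beside 34.8% of all regions, and in 5 of these the comparison of iNKT2 with iNKT17 in C57BL/6 mice was called, beside 16.2%, higher in iNKT2. Its coding exon region at chr1:192062571-192063070 had 4.56 and 4.50, 4.79 and 4.58, and 2.65 and 2.45 in C57BL/6 iNKT1, iNKT2 and iNKT17 libraries and 4.62 and 4.61, 4.11 and 3.77, and 1.41 and 1.85 in Hivep3-/- libraries, lowest in iNKT17 in both. Between genotypes, 2 of 146 regions (1.37%, beside 1.15% of all tested regions) were higher in Hivep3-/- iNKT1 cells, 1 of 152 higher and 1 lower in iNKT2 cells (1.32%, beside 1.68%) and 0 of 142 called by limma in iNKT17 cells (beside 0.271%), so these shares are no result about the list. An unadjusted p under 0.05 was found at 26 (17.8%, beside 17.8% of all tested regions), 37 (24.3%, beside 25.3%) and 36 (25.4%, beside 15.8%) regions in iNKT1, iNKT2 and iNKT17 cells.

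The 4 regions called between genotypes were singled out after their values were seen. The untranslated exon region of Map3k14, the gene of the NF-κB inducing kinase, had 4.25 and 4.52 in C57BL/6 and 6.10 and 6.21 in Hivep3-/- iNKT1 libraries, a rise of 1.77 (SE 0.16, adjusted p = 5.81e-05). An intronic region of Otulin, a deubiquitinase of linear chains, had 2.50 and 2.62 against 4.40 and 4.56 in iNKT1 libraries, a rise of 1.92 (SE 0.17, adjusted p = 3.48e-05). In neither did the genotypes overlap. In iNKT2 libraries, another intronic region of Otulin had 1.74 and 0.51 against 3.05 and 2.92 (1.87, SE 0.44, adjusted p = 0.0172), which was 1.25 (adjusted p = 0.168) without C57BL/6 iNKT2 library 2, and a region upstream of Traf6 had 3.12 and 3.06 against 0.51 and 0.10 (−2.78, SE 0.62, adjusted p = 0.0124). With a constant of 5 all 4 were under 3-fold, with 1.56 at Map3k14, 1.33 and 0.82 at Otulin and −1.11 at Traf6, and the second Otulin region was so with a constant of 1 (1.46).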

How the data were processed

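The 12 Omni-ATAC-seq libraries of 3 sorted thymic iNKT subsets, 2 per subset and genotype, were read from 1 deposited table of 63309 regions of 500 bp on mm10 (GRCm38.p6), whose deposited values are log2 insertions per kb. The authors trimmed reads with Trimmomatic 0.39 per the submitters' processing notes, ran the ENCODE pipeline, counted insertions with chromVAR and normalized with voom. The values were used as deposited, with no constant added. Sequencing depth is not in the files, and between 73 and 491 distinct values per library lie under its median. The linear values of a library sum to between 1915051 and 1919037, and each decile from the 20th to the 90th percentile differs between libraries by at most 0.07 (0.23 at the 10th), as after quantile normalization, a step the deposited notes do not name. A difference common to all regions would not show.

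A model with 1 mean per group was fitted to all 12 libraries in limma 3.58.1 (R 4.3.3), with an intensity trend (6 residual and 7.17 prior degrees of freedom). For each of 9 comparisons, genotypes within a subset and subsets within a genotype, and for 3 interactions, a region was tested where any group involved averaged 5 or more on the linear scale, p was adjusted by Benjamini and Hochberg over all tested regions, and adjusted p under 0.1 with at least 3-fold was called. The fit was tested on simulated data. Genes came from GENCODE vM21 in Python 3.11.15 with numpy 2.4.6, pandas 2.3.3 and pysam 0.24.0, and figures from matplotlib 3.10.9. The members and lists were chosen with earlier results of these data known. The iNKT17 marker list and 1 of the planned motifs are not reported here.

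Named were the 3 called member regions with the largest rise and the 3 with the largest fall in each comparison, all called between genotypes or in an interaction, called promoter regions (the most open within 1000 bp of a start site) and the 5 loci with the most called regions in C57BL/6 mice. Deviations of same-numbered libraries from their group means correlated by 0.120 to 0.167 between subsets of 1 genotype, whose cells were transposed together per the protocol, and by 0.0911 to 0.174 between genotypes. Alternatives changed the filter, a constant of 1 or 5 added to the linear values, the fold threshold, the locus, the libraries in the fit and a replicate block.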

Additional observations from a re-analysis of the deposited data

Results flagged for a closer look

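The interaction terms picked out 9 results at 7 member regions because the genotype difference differed between 2 subsets, given as the first subset minus the second. The cause was not tested for any of them. Between iNKT1 and iNKT2 cells, Tnfrsf22 (2.73, SE 0.40, adjusted p = 0.00256) and Tnfrsf8 (1.88, SE 0.37, adjusted p = 0.0108) kept the call without each single library. In both, iNKT2 libraries were lower in Hivep3-/- mice. The summed iNKT1 marker promoters were lower there too (220 and 241 against 275 and 266), as were the iNKT2 markers (296 and 301 against 339 and 331). Of the single iNKT1 markers, Ifng was called lower, Xcl1 and Tbx21 were lower without overlap and Il2rb overlapped. Klrb1c alone was higher (3.05 and 2.95 against 2.67 and 2.30). The same regions were picked out between iNKT2 and iNKT17 cells, Tnfrsf8 with −1.75 (adjusted p = 0.0387), lost when any 1 of 5 libraries was left out (adjusted p = 0.121 without C57BL/6 iNKT17 library 1), and Tnfrsf22 with −1.89 (adjusted p = 0.0389), lost when any 1 of 3 libraries was left out (adjusted p = 0.136 without C57BL/6 iNKT17 library 1).

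A Fas intron (chr19:34293999-34294498), differing between iNKT1 and iNKT2 by −1.72 (SE 0.36, adjusted p = 0.0136), had 2.75 and 2.62, 2.28 and 1.69, and 2.46 and 2.40 in C57BL/6 iNKT1, iNKT2 and iNKT17 libraries and 1.96 and 1.93, 3.08 and 2.85, and 2.91 and 2.99 in Hivep3-/- libraries. Without C57BL/6 iNKT2 library 2 it was −1.43 and no longer called. The promoter shared by Tnfsf12 and Tnfsfm13 differed by 1.96 (SE 0.47, adjusted p = 0.0252), not called without C57BL/6 iNKT2 library 2 (adjusted p = 0.102) or Hivep3-/- iNKT1 library 2 (adjusted p = 0.129). A Tnfsf8 intron (chr4:63840416-63840915) differed by 1.65 (SE 0.54, adjusted p = 0.0924), with 2.05 and 2.86 in C57BL/6 iNKT1 and 1.48 and 1.66 in iNKT2 libraries and 3.46 and 3.46, and 1.20 and 0.66 in Hivep3-/- libraries, and lost the call when any 1 of 8 libraries was left out (1.24 without C57BL/6 iNKT1 library 1).

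Between iNKT1 and iNKT17 cells, the Tnfrsf1b intron differed by −1.67 (SE 0.36, adjusted p = 0.035), lost when any 1 of 5 libraries was left out (adjusted p = 0.146 without Hivep3-/- iNKT1 library 2). The promoter of a shorter Tnfrsf19 transcript (chr14:61037695-61038194) differed by 1.76 (SE 0.40, adjusted p = 0.0432), lost when any 1 of 6 libraries was left out (adjusted p = 0.15 without Hivep3-/- iNKT1 library 1). Its values were 1.20 and 0.71, 3.14 and 3.61, and 2.77 and 2.67 in C57BL/6 iNKT1, iNKT2 and iNKT17 libraries and 2.30 and 2.21, 3.80 and 3.74, and 1.95 and 2.56 in Hivep3-/- libraries.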

How the results depend on the processing

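No call reversed its direction. Of 173 called pairs of region and comparison, 35 were lost with a constant of 1, 118 with a constant of 5 and 34 without some single library. Tests without a filter and the 164 fits of only the compared groups lost none. The pairs are the member calls, the signalling regions called between genotypes and the Ifng promoter in iNKT2 cells. Other signalling calls are not among them. Where the mean over all 12 libraries had to reach 5, 28 were no longer tested and the other 145 kept the call. The constant acts most where 1 group is near closed. The cause was not tested elsewhere. Counts below are ordered iNKT1, iNKT2 and iNKT17 for genotypes, then iNKT1 against iNKT2, iNKT1 against iNKT17 and iNKT2 against iNKT17.

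At 2-fold, 3, 4 and 2 member regions were called between genotypes, 47, 58 and 32 between C57BL/6 subsets, 54, 60 and 34 between Hivep3-/- subsets and 18 in an interaction. With a constant of 5 these were 0, 0 and 0, then 8, 12 and 5, then 13, 12 and 5, and 0. A constant of 1 left 1 in iNKT2, 0 in iNKT17 and 2 interactions. The gene body alone gave 15 and 19 for C57BL/6 iNKT1 against iNKT2 and iNKT17 and 20 for Hivep3-/- iNKT1 against iNKT17. With 50 kb on either side, 2 were called in iNKT1 between genotypes, 50, 62 and 40 in C57BL/6, 52, 63 and 31 in Hivep3-/- and 13 in an interaction. Of 209 counts recomputed, 171 stayed within 1.5 times. Counts under these settings are given without the shares of all regions and are no result about the family.

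Leaving out each library in turn, with the lone library of its group assumed to vary like the others, gave 0 to 0, 2 to 2 and 0 to 1 between genotypes, 25 to 29, 32 to 37 and 17 to 19 in C57BL/6, 28 to 33, 34 to 37 and 14 to 20 in Hivep3-/- mice, and 4 to 11 interactions. With the replicate block, the 9 comparisons had the same counts (27, 33 and 19 in C57BL/6) and interactions 8 in place of 7 regions, and the block ended no call. Depth is not in the files, so what it limits is not known.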
